A study of Mus musculus with 18 samples.

Results

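Rapamycin was compared with vehicle in RN2 cells carrying seBE, a base editor whose activity is switched on by that drug, across 14985 expressed genes. The comparison uses 6 of the 18 libraries of the study, 3 with 1 nM rapamycin and 3 with vehicle, chosen by their sample titles. RN2 is a mouse acute myeloid leukemia cell line driven by MLL-AF9 and a mutant Nras, and its genotype is otherwise labelled WT. The seBE groups carried the lentiviral seBE construct, received drug or vehicle for 24 h and were sorted on day 5 after transduction. The 6 libraries of cells carrying intact BE, the undivided editor with the evoA1 deaminase, had the same dose, vehicle, duration and sort day and were used as the comparison. The titles number the 3 libraries of each group as biological replicates without saying whether separate cultures or transductions gave them, so p-values measure only the spread between these samples.

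In seBE the deaminase is divided into inactive pieces that rapamycin brings together by bridging an FKBP domain and an FRB domain. Rapamycin also binds the cell's own FKBP12, the product of Fkbp1a, and that complex inhibits mTORC1, the kinase complex that couples nutrient and growth factor signals to growth. Active mTORC1 promotes amino acid supply genes through ATF4, sterol and fatty acid genes through SREBP factors, and the making of ribosomes, while it restrains lysosomal genes through TFEB and upstream insulin signalling through feedback. The drug that switches the editor therefore has a known effect of its own on host transcription. The comparison asks how much host expression differs between drug and vehicle in seBE. Within it the effects of the drug and of the switched editor cannot be told apart, and editing was not measured here. The RNA of a sorted population was measured in bulk, so fewer cells with a transcript and less of it per cell cannot be told apart.

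No gene changed between rapamycin and vehicle in seBE cells by edgeR's quasi-likelihood F test at an adjusted p under 0.05, a call rate of 0% of the 14985 genes. The smallest adjusted p was 0.3, for Itga1, and the next was 0.999. At an unadjusted p under 0.05 there were 493 genes, 3.29% of those tested, of which 269 (1.8%) were higher and 224 (1.49%) lower under rapamycin. The 3 libraries of one group lay wholly above those of the other for 1208 genes (8.06%), 545 higher and 663 lower under the drug. Random order separates 3 libraries from 3 with a probability of 0.1, so a lack of overlap alone does not show a change. A test for a change beyond 1.2-fold (edgeR's glmTreat) also called 0 genes. DESeq2 called 1 gene, Itga1.

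The size of change that these data still allow depended on how abundant a gene was. Each estimate has a 95% confidence interval for that gene alone, and the interval lay within a 25% rise and the same factor downward for 5197 genes (34.7%), within 1.5-fold either way for 8739 (58.3%) and within 2-fold for 10403 (69.4%). Levels are CPM, the share of a library's counts scaled to a fixed total, on library sizes adjusted by edgeR's TMM scaling. Of the 1753 genes with a mean of 128 CPM or more, 89.2% were bounded within 25% and 98.6% within 1.5-fold. Of the 4395 genes from 32 to 128 CPM, 72.9% were bounded within 25% and 99.2% within 1.5-fold. Among the 2969 genes from 8 to 32 CPM, 84.1% were bounded within 1.5-fold and 99.5% within 2-fold. Below that the bounds were wide. Only 40.9% of the 3196 genes from 1 to 8 CPM were bounded within 2-fold, and none of the 2672 genes under 1 CPM was, so changes of 2-fold were not detectable there at this depth. A further limit is that 62 genes had no counts in at least one group and received no interval.

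**Figure D1:**
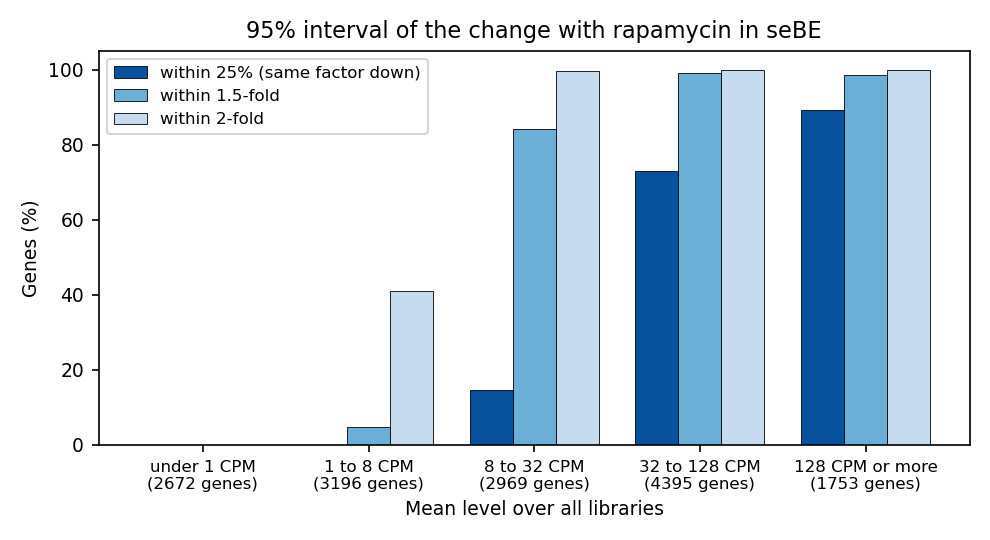
Share of genes (percent, vertical axis) whose 95% interval for the change with rapamycin in seBE lay within 25%, 1.5-fold or 2-fold, in 5 bands of mean level in CPM (horizontal axis). In the highest bands, from 32 CPM upwards, 99.2% and 98.6% of genes were bounded within 1.5-fold, while under 1 CPM no gene was bounded within 2-fold.

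Among the 9117 genes with a mean of at least 8 CPM, the fitted changes in seBE had a median absolute size of 0.08 on the log2 scale, a 95th percentile of 0.25, a 99th percentile of 0.36 and a maximum of 0.72. In intact BE the same quantities were 0.11, 0.40, 0.67 and 2.01. Of all fitted changes in seBE, 49.8% were negative.

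The targets of the drug and the switch come first. Fkbp1a encodes the intracellular rapamycin receptor. Its level in seBE was 210, 198 and 213 CPM under vehicle and 204, 191 and 182 CPM under rapamycin. The ranges overlapped, the log2 fold change was -0.11 with a standard error (SE) of 0.07, and the interval allowed a change of at most 1.19-fold. Of 10 tested genes of the FKBP family, 9 had negative estimates, with a median log2 fold change of -0.06, and 0 were called. For Mtor, the kinase subunit itself, vehicle libraries stood at 71.0, 67.7 and 65.8 CPM and rapamycin libraries at 71.0, 61.3 and 62.6 CPM, with a bound of 1.18-fold. For Rps6kb1, the S6 kinase that mTORC1 phosphorylates, the bound was 1.16-fold. Across 38 tested genes of the mTOR complexes and their S6 kinase branch the median log2 fold change was 0.00, with 18 negative and 20 positive estimates.

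Insulin and FOXO feedback genes were bounded loosely or tightly according to level. Irs2, an adaptor of the insulin receptor, ranged from 4.86 to 7.18 CPM under vehicle and from 4.49 to 7.17 CPM under rapamycin, and changes up to 1.44-fold were allowed. Igf1r, the receptor for insulin-like growth factor, was at 335, 315.5 and 329 CPM under vehicle and 368, 339 and 316 CPM under rapamycin, bounded at 1.152-fold. Of 20 tested members of this list 13 had positive estimates, and the median log2 fold change was 0.04. At an unadjusted p under 0.05, 2 were higher, against 1.8% of all genes.

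Genes of amino acid supply driven by ATF4 make up the list with the largest median fall in intact BE. There 19 of 35 tested members fell and 1 rose, with a median log2 fold change of -0.54. Of all genes tested, 1.34% fell and 1.98% rose in intact BE. In seBE 27 of the 35 had negative estimates, against 49.8% of all genes, the median was -0.09, and 0 were called. The promoters of 4 members are shown, chosen among those that hold the amino acid response motif, TGATGNAA, to which ATF4 and its partners bind, in a window from 250 bases before to 50 after the start of the gene. Asns, Chac1 and Pck2 fell in intact BE, and Slc7a11, the cystine transporter, rose there and holds 2 matches. Each is written 5′ to 3′ on the gene's strand, from RefSeq on GRCm38.p6, an older build than that of the counts, with the match on either strand in capitals.
Asns (chr6:7693160-7693459, minus strand): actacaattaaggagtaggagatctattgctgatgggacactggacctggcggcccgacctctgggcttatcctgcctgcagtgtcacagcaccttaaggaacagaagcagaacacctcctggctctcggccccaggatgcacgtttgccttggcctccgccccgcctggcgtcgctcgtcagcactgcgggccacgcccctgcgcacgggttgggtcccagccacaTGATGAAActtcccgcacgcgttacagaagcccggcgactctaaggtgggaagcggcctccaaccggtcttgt
Chac1 (chr2:119350992-119351291, plus strand): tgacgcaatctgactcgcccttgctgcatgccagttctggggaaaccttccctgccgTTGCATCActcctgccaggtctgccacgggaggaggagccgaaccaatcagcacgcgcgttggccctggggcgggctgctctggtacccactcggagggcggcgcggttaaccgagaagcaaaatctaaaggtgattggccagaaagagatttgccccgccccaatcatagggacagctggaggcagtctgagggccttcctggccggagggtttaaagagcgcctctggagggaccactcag
Pck2 (chr14:55540016-55540315, plus strand): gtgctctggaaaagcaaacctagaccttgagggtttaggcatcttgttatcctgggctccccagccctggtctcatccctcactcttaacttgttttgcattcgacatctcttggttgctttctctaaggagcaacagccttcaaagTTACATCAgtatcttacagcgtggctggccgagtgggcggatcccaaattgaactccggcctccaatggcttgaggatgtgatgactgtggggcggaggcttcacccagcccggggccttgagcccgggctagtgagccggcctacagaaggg
Slc7a11 (chr3:50443564-50443863, minus strand): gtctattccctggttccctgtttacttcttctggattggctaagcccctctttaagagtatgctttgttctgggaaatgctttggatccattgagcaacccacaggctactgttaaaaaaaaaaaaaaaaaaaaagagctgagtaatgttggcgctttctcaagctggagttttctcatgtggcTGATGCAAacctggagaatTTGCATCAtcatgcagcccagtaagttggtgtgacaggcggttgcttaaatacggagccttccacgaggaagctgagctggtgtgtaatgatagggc
The motif was present for 11 of the 31 tested members that had such a window. Counted by window, it was in 11 of their 38 and in 1304 of all 32851 (3.97%). Of those 11 members 5 fell in intact BE, 1 rose and 5 were not called, and 0 were called in seBE. A match is a description of the sequence and not evidence of binding. The sterol motif TCACNCCAC, searched the same way, was present for 1 of 20 cholesterol genes with a window. It was in 1 of their 26 windows and in 1.24% of all windows.

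Asns encodes asparagine synthetase. Its level was 107, 100.1 and 95.2 CPM in the vehicle libraries of seBE and 88.3, 92.5 and 91.9 CPM in the rapamycin libraries. The groups did not overlap, yet the log2 fold change was only -0.15 (95% interval -0.33 to 0.03). In intact BE it fell by 0.95 on the log2 scale (SE 0.09, edgeR adjusted p = 8.36e-09), from 132, 137 and 111 CPM to 72.3, 60.8 and 63.2 CPM, and the difference between the effects was called (0.80, SE 0.13, adjusted p = 0.00176). Chac1, which degrades glutathione, had an estimate of -0.37 in seBE and fell by 1.75 in intact BE. For Pck2, the mitochondrial form of phosphoenolpyruvate carboxykinase, the estimates were -0.02 in seBE and -0.56 in intact BE. Slc7a11 had an estimate of 0.05 in seBE and rose by 0.97 in intact BE.

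Further members of this list are named because they were called in intact BE, where all 497 called genes had estimates larger in size than in seBE. Phgdh catalyses the first step of serine synthesis. It stood at 203, 199 and 192.5 CPM under vehicle and 179, 152 and 157 CPM under rapamycin in seBE. These libraries did not overlap, and the log2 fold change of -0.28 (SE 0.08) had the smallest p of this list, 0.00113 unadjusted and 0.999 adjusted in the edgeR fit. In intact BE Phgdh fell by 0.76, and the difference from seBE missed the threshold (adjusted p = 0.0727). Mthfd2, a mitochondrial folate enzyme, had an estimate of -0.14 in seBE against -0.75 in intact BE, and Shmt2, which converts serine to glycine in mitochondria, -0.08 against -0.57. Both differences were called by edgeR (adjusted p = 0.00608 and 0.028). Cth, which makes cysteine, was at 11.7, 15.8 and 11.8 CPM under vehicle and 8.32, 13.7 and 7.78 CPM under rapamycin. Its estimate of -0.40 in seBE stood against -1.97 in intact BE. Atf4 mRNA itself was bounded at 1.17-fold in seBE. The cytosolic aminoacyl-tRNA synthetases, which charge tRNAs, had 14 of 19 negative estimates with a median of -0.05, all 19 bounded within 1.5-fold. In intact BE their median was -0.29 and 10 fell, against 1.34% of all genes.

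No lipid gene was called in seBE. Of 28 tested genes of cholesterol synthesis, 21 had negative estimates (median -0.10), and 27 were bounded within 1.5-fold. At an unadjusted p under 0.05, 4 were lower, against 1.49% of all genes. In intact BE the median was -0.24 and 7 members fell, against 1.34% of all genes. Of 16 tested fatty acid genes 13 had negative estimates (median -0.08, against -0.23 in intact BE). Scd2, a desaturase that makes monounsaturated fatty acids, was at 528, 582 and 512 CPM under vehicle and 412.5, 491 and 497 CPM under rapamycin. The groups did not overlap, with a log2 fold change of -0.21 (SE 0.08). Fads2, a desaturase of polyunsaturated fatty acids, was at 99.3, 119.9 and 98.3 CPM against 82.8, 95.2 and 87.8 CPM, again without overlap, with a log2 fold change of -0.26 (SE 0.09). Mvd, an enzyme of the mevalonate pathway, had an estimate of -0.29 with an interval from -0.58 to -0.01. All 3 fell in intact BE, by 0.60, 0.60 and 0.62, and for none of them was the difference between the editors called. Srebf1, which encodes SREBP1, was bounded at 1.31-fold in seBE.

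Growth and translation genes were bounded closely, as were abundant genes in general. Myc stood at 198, 197.5 and 195 CPM under vehicle and 209, 203 and 205 CPM under rapamycin, higher without overlap, but the estimate was 0.06 and the interval allowed at most 1.14-fold. All 52 tested MYC and ribosome biogenesis genes were bounded within 1.5-fold, as were all 46 translation factors. The share was 99.2% over all genes from 32 to 128 CPM and 98.6% over those with 128 CPM or more. The 80 cytosolic ribosomal protein genes had a median log2 fold change of -0.02 in seBE, with 0 called and 78 bounded within 1.5-fold. In intact BE their median was 0.22 and 27 rose, against 1.98% of all genes. For Rpl4, a large subunit protein, the seBE estimate was 0.00 with a bound of 1.09-fold, against a rise of 0.32 in intact BE. The difference between the editors was called for 0 of the 80. All 40 DNA replication genes were bounded within 1.5-fold, with a median of -0.01. Of the 37 proteasome genes 30 had negative estimates (median -0.06), and of 43 nuclear genes of oxidative phosphorylation 32 did (median -0.06). The 56 lysosome and autophagy genes had a median of -0.01.

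**Figure D2:**
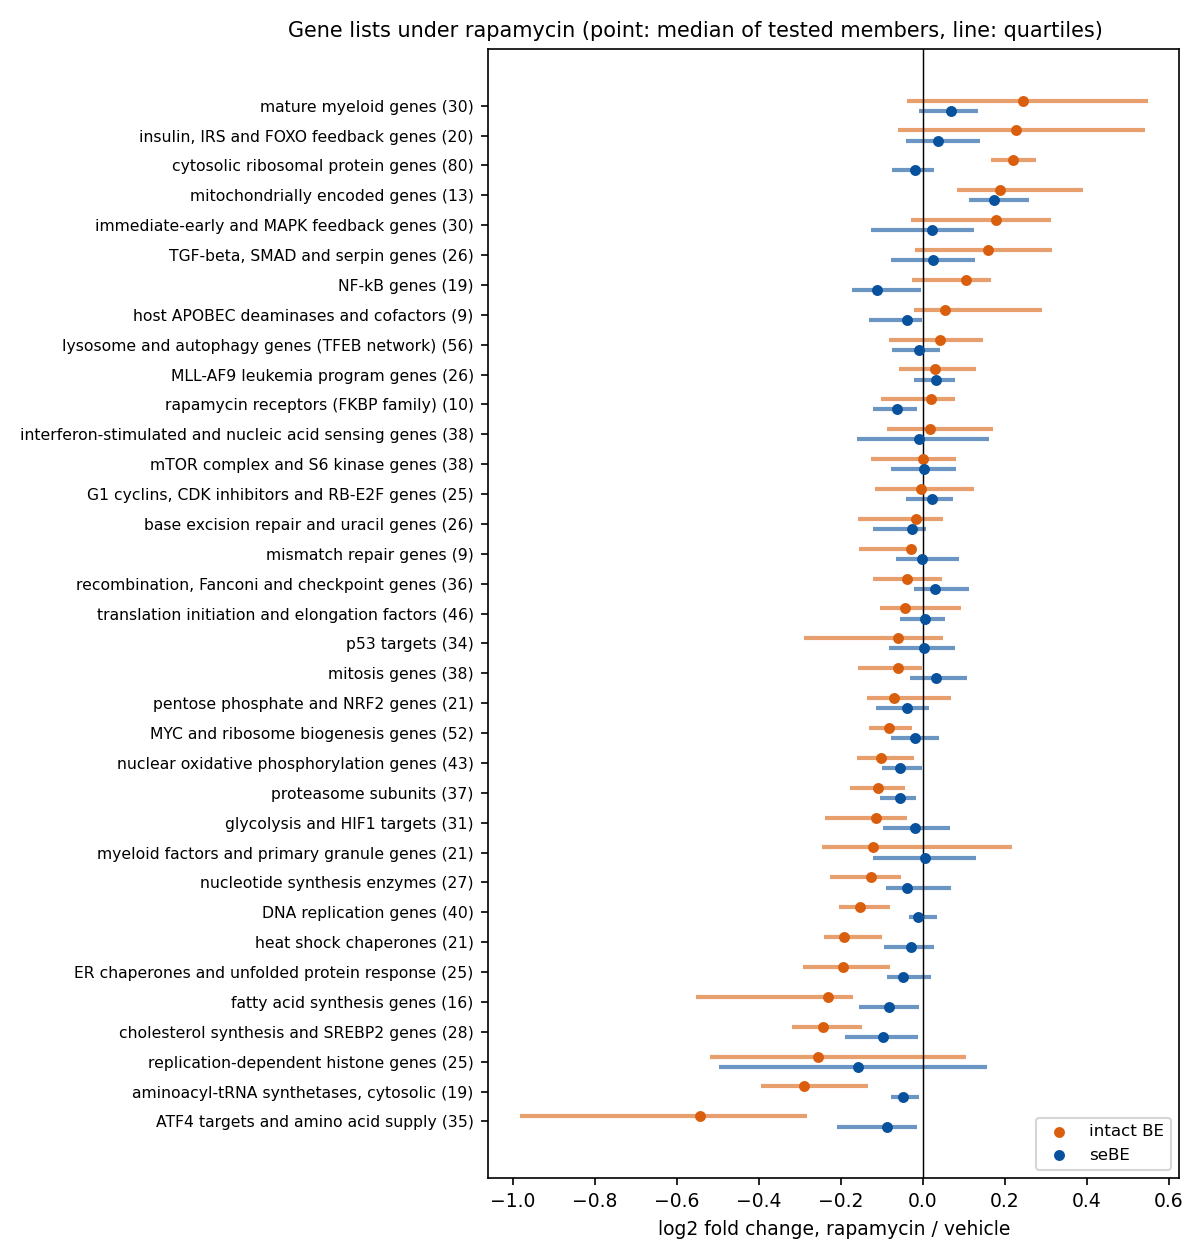
Median log2 fold change with rapamycin (points) and quartiles (lines) of the tested members of each gene list with at least 9 of them, in seBE (blue) and intact BE (orange). The number of tested members stands in brackets. The ATF4 list has a median of -0.54 in intact BE and -0.09 in seBE, and the ribosomal protein list 0.22 and -0.02.

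Genes of uracil removal, DNA damage and nucleic acid sensing had no called change. Ung, the uracil DNA glycosylase that removes the product of cytosine deamination, stood at 27.8, 24.0 and 26.2 CPM under vehicle and 32, 26.7 and 27.7 CPM under rapamycin. The ranges overlapped, and changes up to 1.33-fold were allowed. Of 26 base excision repair and uracil genes 18 had negative estimates, with a median of -0.03. Cdkn1a, the p53-induced cell cycle inhibitor, was at 157, 162 and 154 CPM under vehicle and 174, 153 and 153 CPM under rapamycin, bounded at 1.14-fold. Mdm2, the p53 antagonist and p53 target, was bounded at 1.11-fold. Across 34 p53 targets the median was 0.00, with 26 bounded within 1.5-fold. The cell's own Apobec1, a cytidine deaminase gene of the same family as the editor's deaminase, was bounded at 1.22-fold. Whether reads of the editor construct count towards it was not tested. Of 38 interferon-stimulated and nucleic acid sensing genes 19 had positive and 19 negative estimates, and 18 were bounded within 1.5-fold. Of 19 NF-kB genes 16 had negative estimates, with a median of -0.11, and 0 had an unadjusted p under 0.05.

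Markers of the leukemia and of other cell types were read in the same libraries. Hoxa9, a homeobox factor of the MLL-AF9 program, lay at 307, 311 and 295 CPM under vehicle and 304.5, 299 and 296 CPM under rapamycin, bounded at 1.12-fold. The summed level of 29 leukemia program genes ran from 5219 to 5346 CPM under vehicle and from 5436 to 5496 CPM under rapamycin, without overlap, and without rapamycin replicate 1 the list's median log2 fold change moved from 0.03 to -0.01. Kit, the stem cell factor receptor, was at 124, 112 and 121 CPM against 128, 129 and 146 CPM. Its log2 fold change was 0.18 (SE 0.08) at an edgeR adjusted p of 0.999. Mpo and Elane, the granule enzymes of early myeloid cells, were present in all 6 libraries with overlapping ranges. The T cell marker Cd3e had no counts in the 6 libraries, and Pf4 of megakaryocytes had 1 count. Summed levels overlapped between vehicle and rapamycin for the granule, mature myeloid, mast cell, erythroid, megakaryocyte and lymphocyte lists. For the 12 fibroblast and endothelial markers they ran from 270.0 to 286.8 and from 288.4 to 291.9 CPM, and 7 of those 12 had no counts. Their part in any result was not tested.

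The 12 genes with the smallest p in seBE were chosen after their values were seen, and their sizes are a description. They were taken from genes with a mean of at least 5 CPM in either seBE group. Genes without a symbol and those with predicted or clone names were left out of this choice. Itga1, the integrin chain that with its beta partner binds collagen, was at 80.3, 75.4 and 80.5 CPM under vehicle and 93.2, 111 and 111 CPM under rapamycin. The libraries did not overlap, and the log2 fold change was 0.42 (SE 0.08, 95% interval 0.25 to 0.59). In intact BE Itga1 rose by 0.50, and the difference of -0.08 (SE 0.12) between the editors was not called. Without rapamycin replicate 1, the lowest of its group for Itga1, the gene passed the edgeR threshold (log2 fold change 0.50, adjusted p = 0.0283). Klhl24, a ubiquitin ligase adaptor, was at 60.1, 53.5 and 53.1 CPM against 60.9, 81.3 and 72.6 CPM. Gpnmb, a lysosomal and melanosomal glycoprotein, was at 21.2, 24.9 and 23.1 CPM against 17.6, 18.8 and 14.0 CPM. Hao1, a peroxisomal oxidase, was at 205, 178 and 197 CPM against 235, 224 and 228 CPM. All of Itga1, Klhl24, Gpnmb, Hao1 and Phgdh changed in the same direction in intact BE and passed the threshold there. Dram2 and Mrps34 had estimates of 0.52 and -0.46 in seBE and were not called in intact BE (0.01 and -0.29). Kansl1l, Chp1, Eif2ak2, Setdb1 and Tmem206 were not called there either. For none of these genes was the difference between the editors called (edgeR adjusted p from 0.527 for Dram2 to 0.971 for Tmem206). Rapamycin replicate 1 lay nearest to the vehicle mean of its group's libraries for Itga1, Klhl24, Phgdh, Dram2, Mrps34, Kansl1l, Chp1, Eif2ak2 and Setdb1. For Gpnmb, Hao1 and Tmem206 another replicate did.

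**Figure D3:**
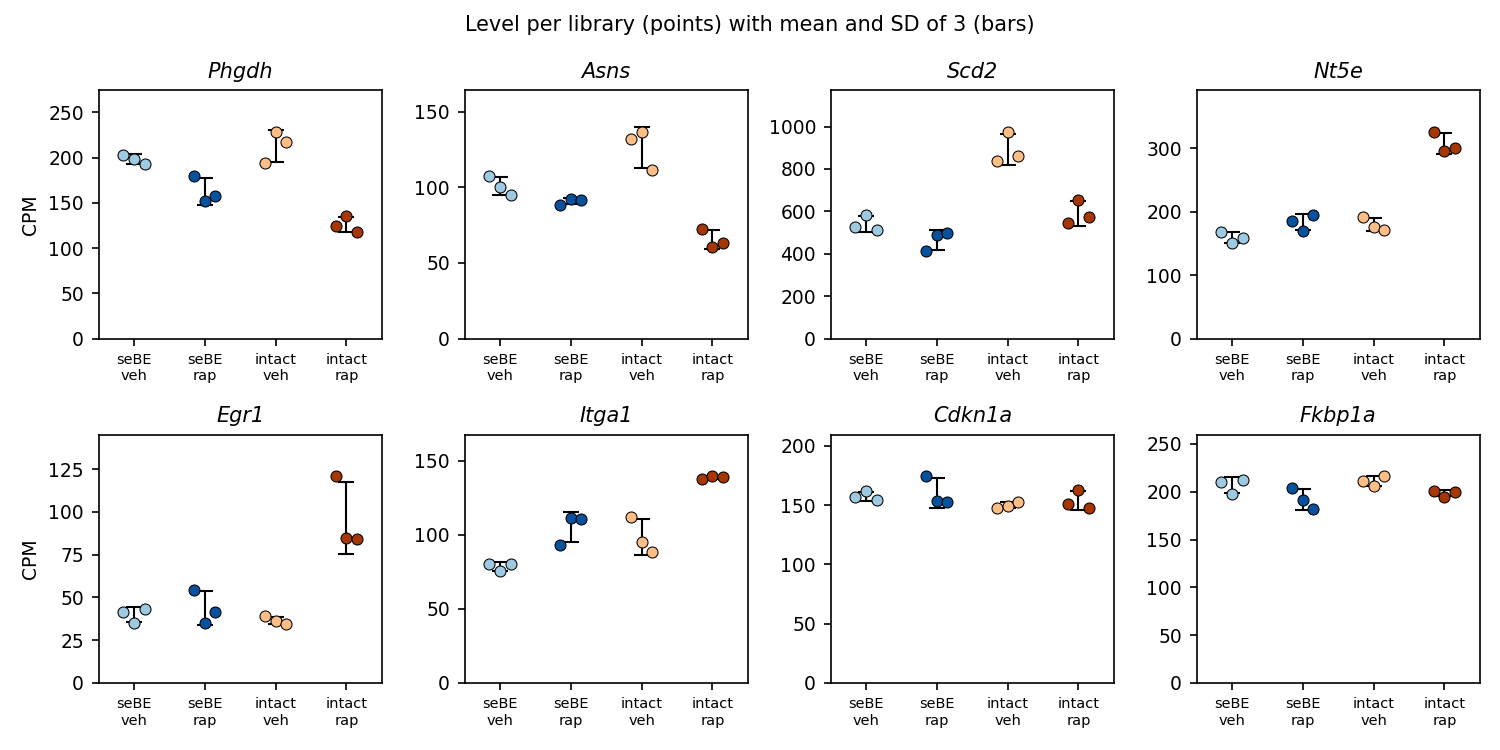
Level in CPM of 8 genes in each of 12 libraries (points) with the mean and SD of each group of 3 (bars), for seBE (blue) and intact BE (orange) under vehicle (veh) and rapamycin (rap). Asns falls to between 60.8 and 72.3 CPM under rapamycin in intact BE. In seBE it lies between 95.25 and 107.2 CPM under vehicle and between 88.3 and 92.5 CPM under rapamycin. The ranges of Cdkn1a overlap between vehicle and rapamycin in both editors.

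The response of intact BE gave a set of genes chosen on a contrast that shares no library with that of seBE, although both use the spread estimated in 1 fit. There 497 genes passed the threshold (3.32%), 296 higher (1.98%) and 201 lower (1.34%), and 22.3% of genes had no overlap between the groups. The count fell to 214 without its rapamycin replicate 1, 223 without its vehicle replicate 2 and 224 without its vehicle replicate 3. Their size in intact BE is a selected value, since they were chosen on it, and their size in seBE is not. Of the 497, 400 (80.5%) had the same sign in seBE, 240 of the 296 that rose and 160 of the 201 that fell. Among the 14488 genes not called in intact BE the share was 55%, and among all genes 55.9%. With a mean of at least 8 CPM the shares were 82.4% of 461 called genes and 57.6% of 8656 others. Within those 461 genes the fitted changes had a Pearson correlation of 0.644 across genes, which are not independent replicates.

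The sizes were small. Genes that rose in intact BE by a median of 0.41 had a median of 0.07 in seBE, and those that fell by a median of 0.44 had a median of -0.08. The median ratio of the seBE to the intact BE estimate was 0.171. In seBE 56 of the 497 had an unadjusted p under 0.05 in the same direction and 1 in the opposite direction. The 95% interval in seBE lay within 25% for 284 (57.1%). Over all genes the share was 34.7%, but no gene under 8 CPM was bounded so closely, and 461 of the 497 lay above that level. By level the share over all genes was 14.5% from 8 to 32 CPM, 72.9% from 32 to 128 CPM and 89.2% from 128 CPM upwards. Whether the 497 differ from other genes of like level was not tested. The median of every seBE rapamycin library lay on the same side of the seBE vehicle mean as the change in intact BE. Against the seBE vehicle mean, the genes that rose in intact BE had a median of 0.072, 0.089 and 0.054 in the rapamycin libraries and -0.008, 0.016 and -0.014 in the vehicle libraries. Those that fell had -0.065, -0.097 and -0.069 against 0.015, 0.004 and -0.012. For both sets the rapamycin libraries lay beyond all vehicle libraries, and the median over all tested genes stayed between -0.007 and 0.008 in these 6 libraries. The vehicle libraries are centred on their own mean and so lie near it by construction, and the separation was not tested.

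**Figure D4:**
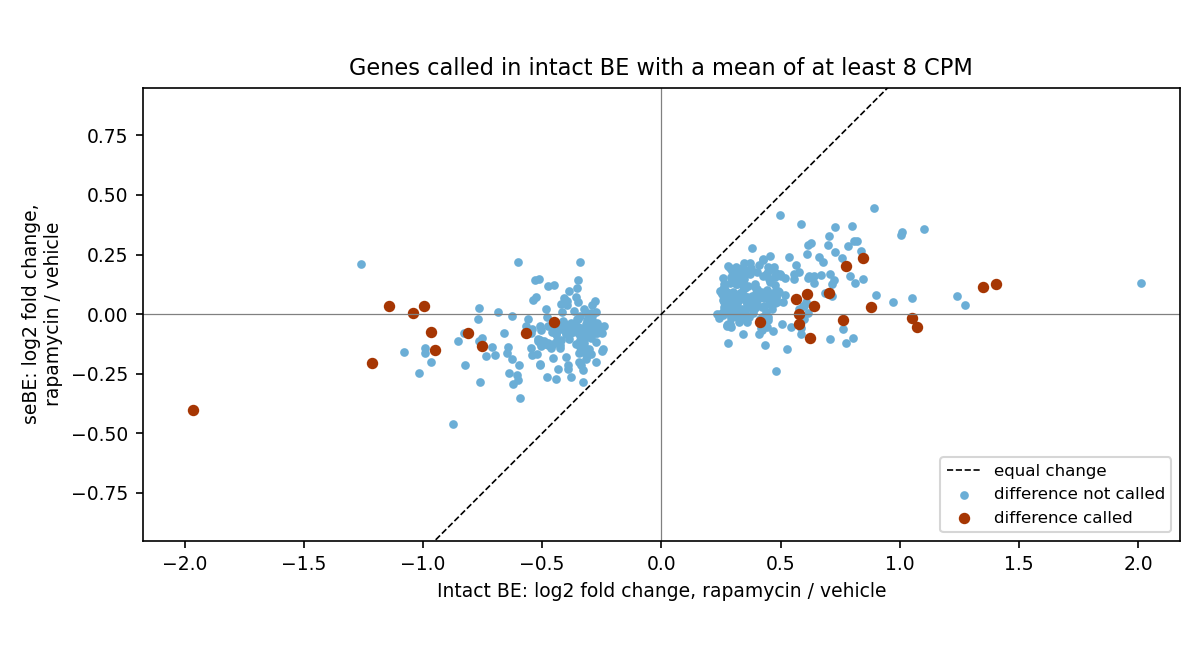
Log2 fold change with rapamycin in seBE (vertical axis) against intact BE (horizontal axis) for the 461 genes called in intact BE with a mean of at least 8 CPM, with genes whose difference was called in red and a dashed line of equal change. The points lie nearer to 0 on the seBE axis than on the intact BE axis, with most in the same-sign quadrants (82.4%).

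**Figure D5:**
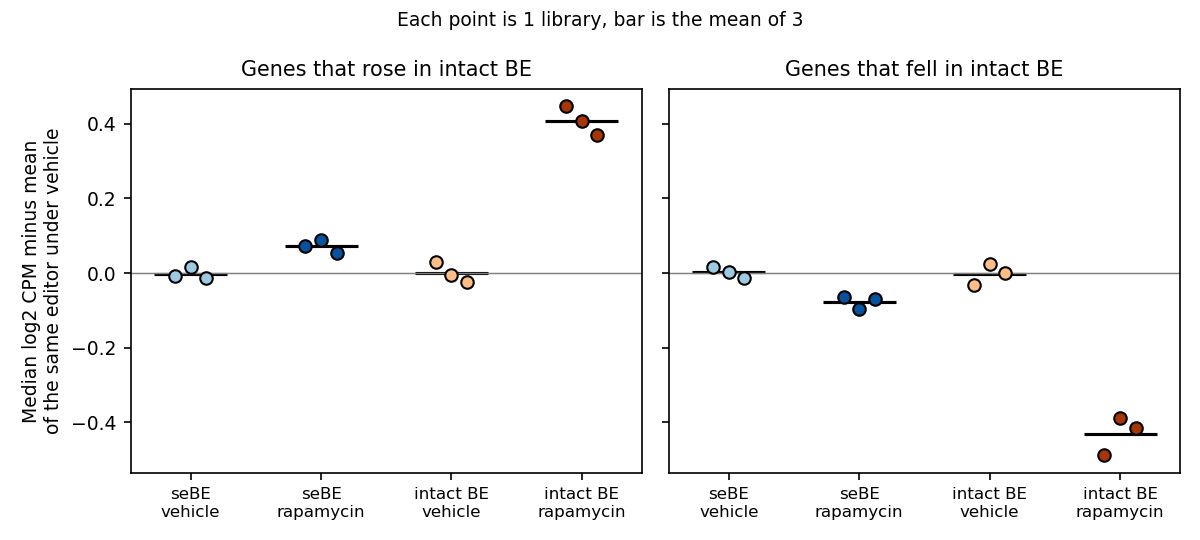
Median log2 CPM, relative to the vehicle mean of the same editor, of the genes that rose (left) or fell (right) in intact BE, with 1 point per library and a bar at the mean of 3. The seBE rapamycin libraries lie between 0.054 and 0.089 on the left and between -0.097 and -0.065 on the right. These values are outside the range of the seBE vehicle libraries, which are centred on their own mean.

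The difference of the drug effects between the editors was tested directly and called for 28 genes (0.187%), or 65 with a replicate block. The count ran from 11 without intact BE rapamycin replicate 1 to 56 without seBE rapamycin replicate 1. All 28 were called in intact BE and had a smaller estimate in seBE, and 18 had the same sign in both. Egr1, an immediate-early transcription factor, was at 41.4, 35.1 and 43.4 CPM under vehicle and 54.3, 34.9 and 41.5 CPM under rapamycin in seBE. In intact BE it rose from 38.8, 36.3 and 34.3 to 120.9, 84.5 and 84.3 CPM, and the difference of the effects was -1.28 (SE 0.19, edgeR adjusted p = 0.00176). Plaur, the urokinase receptor, ran from 114.6 to 127.2 CPM under vehicle and from 97.0 to 146.3 CPM under rapamycin in seBE, bounded at 1.17-fold, while it rose by 0.76 in intact BE. Itgam, the integrin chain of mature myeloid cells, had an estimate of 0.00 bounded at 1.12-fold in seBE and rose by 0.58 in intact BE. Nt5e, the ectonucleotidase CD73, was at 168, 151 and 159 CPM against 186, 170 and 194 CPM in seBE, without overlap, and its estimate of 0.20 was smaller than the rise of 0.77 in intact BE. Ighm, the immunoglobulin mu heavy chain, fell by 1.14 in intact BE and had an estimate of 0.03 in seBE.

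Library totals differed with the treatment and stand beside these results. The seBE vehicle libraries held 14590542, 16887264 and 20518353 counts and the rapamycin libraries 20787927, 21844463 and 22490858, without overlap (1.252 times higher on average, two-sided exact permutation p = 0.1, the smallest that 3 against 3 allows). In intact BE the vehicle libraries held 17753901, 14789497 and 18590586 counts and the rapamycin libraries 23284932, 20044158 and 20832208, also without overlap. With all libraries thinned to equal depth 0 genes were called in seBE, 477 in intact BE and 24 for the difference. Whether depth has a part in the sign shared by the editors was not tested. Counts from mitochondrially encoded genes made up 2.53%, 3.92% and 2.65% of the seBE vehicle libraries and 2.86%, 4.37% and 3.004% of the seBE rapamycin libraries. The means of 3.03% ± 0.77 and 3.41% ± 0.84 (SD, n = 3) gave p = 0.5 in a two-sided exact permutation test that ignores the replicate numbers. Within the pairs of the same number rapamycin was higher by 0.329, 0.455 and 0.354 percentage points, and a two-sided exact permutation of the sign within pairs gave p = 0.25, the smallest that 3 pairs allow. Leaving out rapamycin replicate 2 alone, with its vehicle partner of 3.92% kept, turned the difference of 0.38 to -0.10. Of the 13 mitochondrially encoded genes 11 had positive estimates in seBE, with 0 called and 2 bounded within 1.5-fold. In intact BE the mitochondrial shares were 1.91%, 1.73% and 1.68% under vehicle and 2.12%, 1.98% and 1.87% under rapamycin.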

How the data were processed

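The authors deposited 1 table of raw read counts per gene for all 18 libraries. Per the submitters' processing notes, the tools were fastp 1.0.1, STAR 2.7.1a, SAMtools 1.9, featureCounts of Subread 2.0.3 and DESeq2 (no version), and the genome build was GRCm39. Not given in the sources used here are the annotation release, strand setting and treatment of reads with several matches, so overlapping genes and near-identical copies may be split or merged. Libraries held 13835979 to 23284932 counts. Of the 56748 gene IDs, 52073 matched a symbol, and the others held 2.36% of counts.

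The counts were analysed in R 4.3.3 with edgeR 4.0.16. The filterByExpr step on 6 groups left 14985 genes, and TMM scaling and 1 robust quasi-likelihood fit of 6 group means over the 18 libraries (12 residual degrees of freedom) gave 3 contrasts: rapamycin against vehicle in seBE, the same in intact BE, and their difference. The Benjamini-Hochberg adjustment covered all 14985 genes, and a gene was called where its adjusted p was under 0.05. Standard errors and 95% intervals come from the fitted quasi-likelihood variance and hold per gene. The steps were tested on simulated data with known changes in 200 genes with a mean of at least 8 CPM. Recovery by size of change is not given, so that check does not show which small changes could be called.

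The 40 gene lists and the genes were chosen with earlier results of these data known. The rule was to name the 15 largest rises and falls and up to 3 members of each list among genes called in seBE, and it named 0 genes. Always named were Fkbp1a, Mtor, Rps6kb1, Irs2, Myc, Srebf1, Atf4, Apobec1, Cdkn1a, Mdm2, Ung and Hoxa9. All other genes were chosen after their values were seen: from calls in intact BE, from the tested difference, from the smallest p in seBE or as list members. Lists are described by counts and medians beside all genes tested, with no test of a list. Values of a few single genes are not reported here, although the counts include them.

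Replicate numbers come from the titles. Deviations of the same-numbered seBE libraries from their group means correlated at 0.116, 0.292 and 0.408 over 9084 genes with a mean log2 CPM of at least 3. The numbers were taken to pair the seBE libraries. In intact BE the correlations were 0.17, 0.145 and -0.073, and the numbers were not taken as pairs. The main fit, its standard errors and its bounds did not use the pairing. With a replicate block, edgeR called 0 genes in seBE (smallest adjusted p 0.168) and 8846 were bounded within 1.5-fold. Alternatives were DESeq2 1.42.0, other filters, the compared libraries alone, a replicate block, removal of a trend on transcript length and GC content, thinning to equal depth, 99% intervals and leaving out each library. No guide, protein or genome sequence of GRCm39 was used here.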

Additional observations from a re-analysis of the deposited data

Results flagged for a closer look

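The effect of rapamycin differed between seBE and intact BE for 28 genes in edgeR's test of the difference itself, and each value here is the log2 effect in seBE minus that in intact BE. All 28 are also genes that changed in intact BE.

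Genes that rose in intact BE had estimates in seBE closer to 0 and so negative differences. They include the early growth response factors Egr1 (-1.28) and Egr3 (-2.51) and their corepressor Nab2 (-0.72). Surface proteins of myeloid cells were Plaur (-0.79), Adam8 (-1.07), Itgam (-0.58), Cd200r3 (-1.24) and Nt5e (-0.57). Further genes were the growth factor receptor Igf1r (-0.50), the annexin Anxa5 (-0.61), the serpin Serpinb10 (-1.13), the kinase Tec (-0.62), the transcription factor Gata2 (-0.62), the heme synthesis enzyme Alas1 (-0.45), Cox7a2l (-0.53) and Tmem71 (-0.85).

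Genes that fell in intact BE had estimates in seBE closer to 0 and so positive differences. Amino acid and one-carbon enzymes were Asns (0.80), Cth (1.56), Gpt2 (1.04), Bcat1 (1.01), Mthfd2 (0.62) and Shmt2 (0.48), with the tRNA synthetase Nars (0.42) and the choline dehydrogenase Chdh (0.73). The others were Cgnl1 (1.03), Ighm (1.18) and Scpep1 (0.89).

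The difference was called in all 12 fits that left out 1 library and in all 8 other alternatives for 8 genes: Anxa5, Asns, Egr1, Ighm, Nt5e, Plaur, Scpep1 and Serpinb10.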

How the results depend on the processing

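In seBE the count of called genes was 0 in the main analysis and 1 with DESeq2 (Itga1, adjusted p = 0.0462). It ranged from 0 to 1 when 1 library was left out, and the 1 call, again Itga1, came without rapamycin replicate 1. It was 0 under every other alternative, including the replicate block (smallest adjusted p 0.168) and, added after the data were seen, the 6 seBE libraries alone with a replicate block (0.138). The count beyond 1.2-fold was 0 under every alternative run for it, which DESeq2 was not. The number of genes bounded within 1.5-fold ran from 7829 with 99% intervals to 9049 with the 6 seBE libraries and a replicate block, and from 8028 to 8504 with 1 library left out.

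In intact BE the 497 calls became 873 with the compared libraries alone and 707 with the replicate block, and ran from 214 to 398 with 1 library left out (214 without rapamycin replicate 1, 223 without vehicle replicate 2, 224 without vehicle replicate 3). The 28 called differences became 75 with DESeq2, 66 with no filter, 65 with the replicate block and 66 with the length and GC trend removed. They ran from 11 to 56 with 1 library left out: 11 without intact BE rapamycin replicate 1, 15 and 13 without intact BE vehicle replicates 2 and 3, 17 without seBE vehicle replicate 1 and 56 without seBE rapamycin replicate 1. The cause of these changes was not tested.

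The difference in mitochondrial share ran from -0.102 to 0.824 percentage points with 1 library left out. Within same-numbered pairs, the replicate block added after the data were seen, it was 0.38. Of 1755 values of 117 named genes in seBE under the alternatives, 108 changed sign, in 48 genes, and 2 passed the threshold, both for Itga1. Of 600 list medians, 74 changed sign. Genes under 8 CPM are limited by depth, as the intervals show.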

Other observations

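Gene groups not described above also had small estimates in seBE. Of 38 mitosis genes 23 had positive estimates, with a median log2 fold change of 0.03, against a median of -0.06 in intact BE. At an unadjusted p under 0.05, 3 were higher in seBE, against 1.8% of all genes. Among them were the kinesins Cenpe (0.22) and Kif11 (0.18) and the checkpoint kinase Bub1b (0.15). Of 36 recombination, Fanconi and checkpoint genes 25 had positive estimates, with a median of 0.03. Of 25 chaperones and unfolded protein response genes of the endoplasmic reticulum 17 had negative estimates (median -0.05, against -0.19 and 8 falls in intact BE). Of the 21 heat shock chaperones 13 did (median -0.03, against -0.19 and 2 falls). Over all genes 1.34% fell in intact BE. Replication-dependent histone genes, whose mRNAs mostly lack the polyA tail that the library preparation selects, had 16 of 25 negative estimates but only 3 bounded within 1.5-fold.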
